A study of Homo sapiens with 12 samples.

Results

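The genes described here encode the 4 Janus kinases, JAK1, JAK2, JAK3 and TYK2, and 5 of the STAT transcription factors, STAT3, STAT4, STAT5A, STAT5B and STAT6. They were chosen by name, 9 of 19974 protein-coding genes on chromosomes 1 to 22 and X, and every called interval over the gene span and 5 kb on either side was taken. The study profiled histone modifications by chromatin immunoprecipitation and sequencing in KBM-7 cells, with no treatment named in the labels. KBM-7 is an established near-haploid human line from chronic myeloid leukaemia that carries the BCR-ABL1 fusion. There was 1 library for each of H3K4me3, H3K9ac, H3K27ac, H3K4me2, H3K4me1, H3K79me2, H3K36me3, H4K16ac and H3K27me3, and 3 inputs, with no replicate and no second condition. By the labels H3K4me3, H3K9ac and H3K79me2 share 1 input, H3K27me3 has its own and the other marks share the third. The deposited values are called intervals without read counts or scores, so the depth is unknown, and without replicates the values below describe these libraries and were not tested. The labels H3K36me3 and H4K16ac hold the same 45695 intervals and are given as 1 set, H3K36me3/H4K16ac, which leaves 8 sets. Which of these marks the intervals belong to cannot be told, so values of this set may hold for only 1 of them. Among 9 marker genes of blood progenitors and myeloid cells, 8 held H3K4me3 over the same kind of locus and KIT did not, against 58.4% of all protein-coding genes. Of 7 markers of other cell types, PAX6 did.

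A cytokine that binds its receptor brings together the Janus kinases held on the receptor tails. The kinases then phosphorylate the receptor and the STAT factors that dock on it, and the STATs pair and bind DNA. In blood, JAK2 serves the receptors for erythropoietin, thrombopoietin and IL-3, and JAK1 and TYK2 the type I interferon receptors. JAK3 serves the receptors with the common gamma chain of lymphocytes. BCR-ABL1 is known for activating STAT5 without a cytokine. As for the marks, H3K4me3 and H3K9ac are known from active promoters and H3K27ac from active promoters and enhancers. H3K4me1 and H3K4me2 flank promoters and lie at enhancers. H3K79me2 follows the early part of transcribed genes, H3K36me3 their bodies, and H3K27me3 is laid down by Polycomb complexes.

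The starts of these genes differ in sequence and in called H3K4me3, and the 250 bases before the start are shown for 4 genes that span the range of CG content. They are from RefSeq (GRCh38.p14), read 5′ to 3′ in the direction of transcription and end at the base before the start, with every CG dinucleotide in capitals. A CG is the site of DNA methylation, and promoters rich in it are often called CpG islands. The stretches lie at chr17:42276392-42276641 on the minus strand for STAT5B, chr19:17847983-17848232 on the minus strand for JAK3, chr2:191151597-191151846 on the minus strand for the first start of STAT4 and chr17:42287189-42287438 on the plus strand for the first start of STAT5A.
STAT5B: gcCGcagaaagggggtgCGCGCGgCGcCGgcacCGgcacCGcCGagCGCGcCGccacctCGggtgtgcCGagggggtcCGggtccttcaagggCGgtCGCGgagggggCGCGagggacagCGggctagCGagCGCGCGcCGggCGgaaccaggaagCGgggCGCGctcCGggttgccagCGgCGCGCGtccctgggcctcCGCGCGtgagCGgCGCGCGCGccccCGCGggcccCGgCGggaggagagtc
JAK3: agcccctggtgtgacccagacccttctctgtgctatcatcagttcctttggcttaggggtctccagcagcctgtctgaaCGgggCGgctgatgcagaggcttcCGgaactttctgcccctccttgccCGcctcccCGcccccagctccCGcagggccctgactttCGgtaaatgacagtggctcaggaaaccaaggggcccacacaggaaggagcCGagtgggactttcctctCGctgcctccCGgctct
STAT4: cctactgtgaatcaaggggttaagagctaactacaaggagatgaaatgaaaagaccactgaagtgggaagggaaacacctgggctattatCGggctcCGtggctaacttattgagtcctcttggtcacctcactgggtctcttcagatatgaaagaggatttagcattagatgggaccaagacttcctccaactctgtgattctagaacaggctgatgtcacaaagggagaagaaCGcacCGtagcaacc
STAT5A: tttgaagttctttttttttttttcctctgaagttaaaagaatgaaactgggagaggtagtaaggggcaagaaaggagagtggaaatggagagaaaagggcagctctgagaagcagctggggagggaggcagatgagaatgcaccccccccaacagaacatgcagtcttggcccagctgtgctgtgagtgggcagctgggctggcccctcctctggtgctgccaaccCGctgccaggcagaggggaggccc
The STAT5B stretch holds 47 CG, more than 99.6% of 22132 such stretches at protein-coding genes, and 82% G or C. The JAK3 stretch holds 10 CG, the STAT4 stretch 4 and the STAT5A stretch 1, against a median of 16.

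H3K4me3 covered 1510 bp within 1 kb of the STAT5B start, 255 bp at the first STAT4 start, 139 bp at the first STAT5A start and 0 bp at JAK3. The promoter table gave 17 starts for the members. The 7 starts with at least 16 CG all had H3K4me3 in the window, from 750 to 1510 bp. Of the 10 starts with fewer CG, 8 had it, from 139 to 1701 bp. Over all protein-coding genes, 75.4% of 11561 starts with at least 16 CG and 25.5% of 10571 starts with fewer had H3K4me3 in the window. The 2 starts without it were that of JAK3 and the fourth of JAK2, each with 10 CG. STAT6 (11 CG, 589 bp) and the second start of STAT4 (10 CG, 450 bp) had about as many CG and held the mark. Whether CG content bears on the lack of H3K4me3 at JAK3 was not tested. Starts of 1 gene that lie close together share regions.

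**Figure D1:**
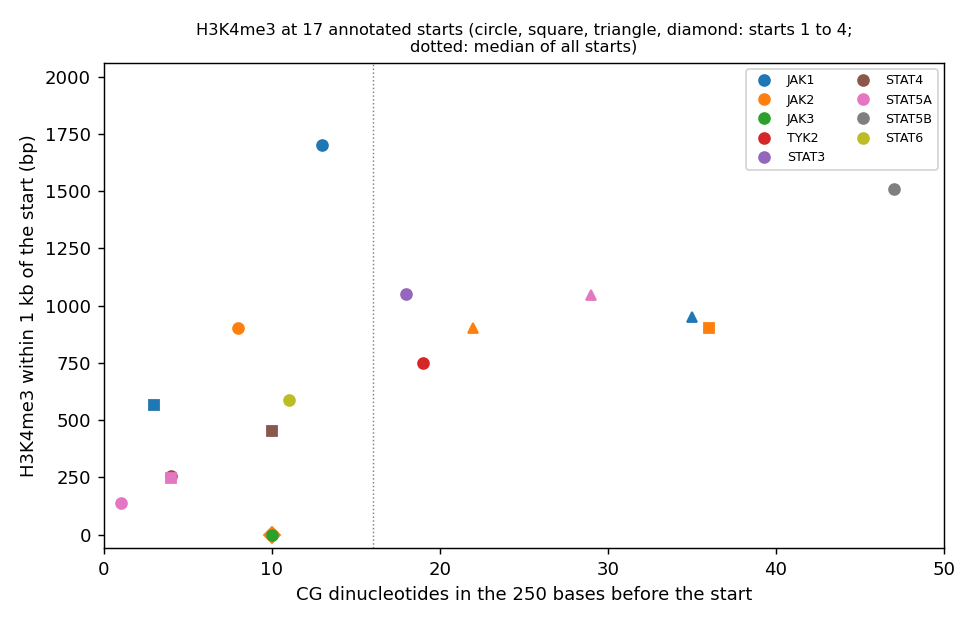
H3K4me3 cover in bp within 1 kb of each of the 17 annotated starts, against the number of CG dinucleotides in the 250 bases before it. Colours stand for genes and symbols for the order of starts within a gene; JAK3 and the fourth start of JAK2 lie on the same point at 10 CG and 0 bp, and the first STAT4 start is partly hidden by the second STAT5A start at 4 CG.

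In STAT5A the mark lay at the CG-rich start. Its first 2 starts, 0.108 kb apart, hold 1 and 4 CG and had 139 and 247 bp of H3K4me3 in the window. The third start, 1.06 kb further on, holds 29 CG and had 1048 bp. JAK1 had H3K4me3 at starts far apart: 1701 bp at the first start, with 13 CG, and 952 bp at the third, 101 kb into the gene, with 35 CG. The second JAK1 start, with 3 CG, lies close to the third and shared its region, with 565 bp. In JAK2 the first 3 starts lie within 0.882 kb and each had the same 900 bp region. The fourth, 57.1 kb into the gene, lies over the annotated pseudogene CSNK1G2P1 and had neither H3K4me3 nor H3K9ac, but 1469 bp of H3K36me3/H4K16ac.

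The motif TTCNNNGAA, which STAT dimers are known to bind, was searched on both strands of the 250 bases before each start, as were the motifs below, with overlaps between motifs allowed. It was in 0 of 17, against 5.92% of all such stretches. The letters GGAA, the core of ETS sites, were in 16 of 17, against 92.5%, and the GC box GGGCGG in 7 of 17, against 53.7%. TYK2 was the start without GGAA. It stood out, after its letters were seen, for CCAAT, the box known to be bound by NF-Y. The stretch is chr19:10380573-10380822 on the minus strand, with CCAAT in capitals.
TYK2: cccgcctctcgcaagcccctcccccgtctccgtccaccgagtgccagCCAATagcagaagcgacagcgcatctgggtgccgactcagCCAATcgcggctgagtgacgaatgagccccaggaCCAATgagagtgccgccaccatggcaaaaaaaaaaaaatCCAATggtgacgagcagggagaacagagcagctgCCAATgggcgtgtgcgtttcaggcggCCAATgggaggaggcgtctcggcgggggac
It holds 6 copies on both strands together, and 99.9% of all such stretches hold fewer. CCAAT was in 32.7% of all stretches, and among the members STAT3 had 2 copies and STAT6 had 1. TYK2 had 750 bp of H3K4me3 at its start.

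Most of these genes carried the marks of active starts, and Polycomb methylation was nearly absent. Within 1 kb of an annotated start, H3K4me3 and H3K9ac were at 8 of 9 members each, all but JAK3, against 55.6% and 58.9% of the 15812 genes with an annotated start. H3K4me2 was at 9 of 9, against 70%. H3K79me2 was at 6, all but JAK2, JAK3 and STAT4, against 40.2%. H3K4me1 was at 5 (JAK3, STAT3, STAT4, STAT5A and STAT5B), against 20.5%, and H3K27ac at 3 (JAK1, STAT5A and STAT6), against 6.84%. H3K36me3/H4K16ac was at 2 (JAK2, at the fourth of its starts, and STAT6), against 5.86%, and H3K27me3 at 0, against 27.3%. Genes with several starts have more windows.

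Over the gene span and 5 kb on either side H3K4me3 and H3K9ac were at 8 members each, against 58.4% and 62.9% of all genes. H3K79me2 and H3K36me3/H4K16ac were also at 8, against 47.6% and 56.3%, where H3K36me3/H4K16ac was at 2 by starts. JAK3 was the exception in all 4 sets. H3K4me2 was at 9, against 78.2%, and H3K4me1 at 8, all but TYK2, against 56.4%. H3K27ac was at 5 (JAK1, STAT3, STAT5A, STAT5B and STAT6), against 10.9%. H3K27me3 was at JAK2 alone, against 44.4% of genes. A long locus has more room for a mark: among the 11008 genes with spans between those of STAT6 and JAK1, H3K4me3 was at 67.4%, H3K9ac at 71.4%, H3K27ac at 12.3% and H3K4me2 at 86.5%. In the same genes H3K4me1 was at 63.5%, H3K79me2 at 56%, H3K36me3/H4K16ac at 66.8% and H3K27me3 at 44.9%. By family, H3K27ac was at 1 of 4 kinase genes and 4 of 5 STAT genes. Of those 4, STAT3, STAT5A and STAT5B are neighbours that share regions.

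**Figure D2:**
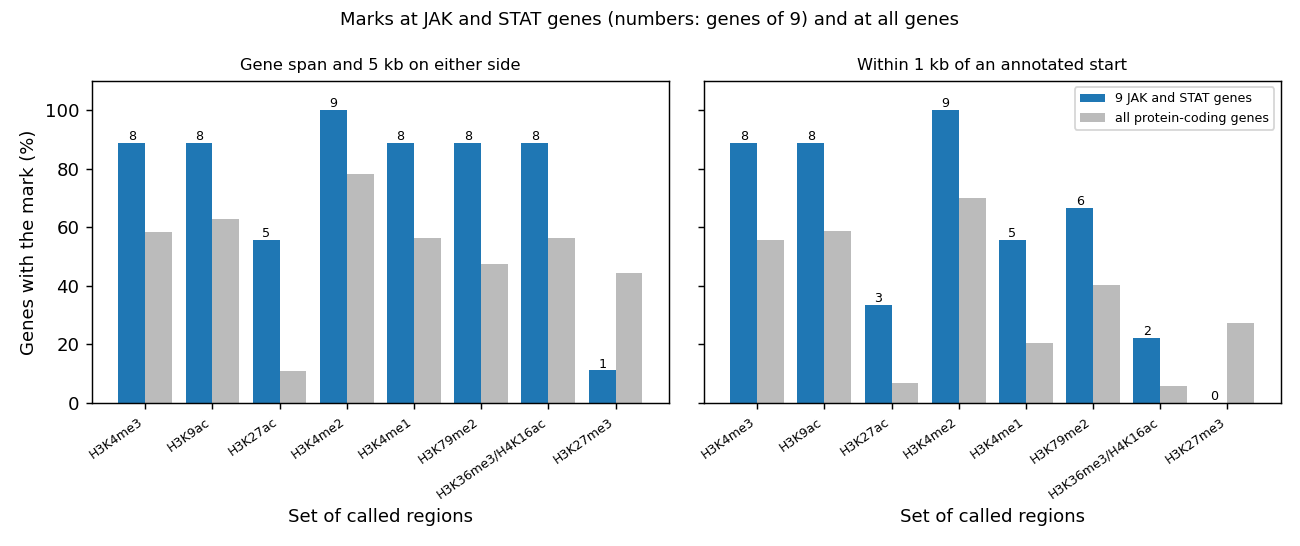
Percentage of genes with each mark over the gene span and 5 kb on either side (left) and within 1 kb of an annotated start (right). Blue bars are the 9 JAK and STAT genes, with the number of genes above the bar, and grey bars all protein-coding genes; H3K27ac stands at 5 and 3 genes, and H3K27me3 at 1 and 0.

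The share of the span under each mark set the members apart from one another. H3K36me3/H4K16ac covered 93.1% of TYK2, 88.3% of STAT6 and 85.7% of STAT5A, then 45.7% of JAK2, 33.6% of STAT5B, 29.95% of STAT3, 15.3% of JAK1, 8.2% of STAT4 and 0% of JAK3. With only regions at or above the median width of the set, JAK2 fell to 28.5%, below STAT5B at 33.6%, and STAT4 to 3.69%. The highest 3 are among the 4 shortest spans, of 15.96 to 30.04 kb; JAK3, at 23.2 kb, is the other. The median over members was 33.6%, against 16.8% over genes in the same range of spans. H3K79me2 gave another order, with 39.1% of STAT5B and 24.4% of STAT3, then 13.5% of STAT5A, 12.6% of STAT6, 7.48% of JAK1, 3.495% of TYK2, 0.738% of STAT4, 0.309% of JAK2 and 0% of JAK3. With the wider regions alone it was 6.58% in STAT6, 4.22% in JAK1 and 0% in JAK2. STAT5B stood above 91.5% of all genes by this measure, and the median over members was 7.48% against 0.52% over genes in the range of spans. H3K4me2 covered between 1.93% of JAK2 and 17.4% of STAT5A. H3K27me3 covered 0% of every span.

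**Figure D3:**
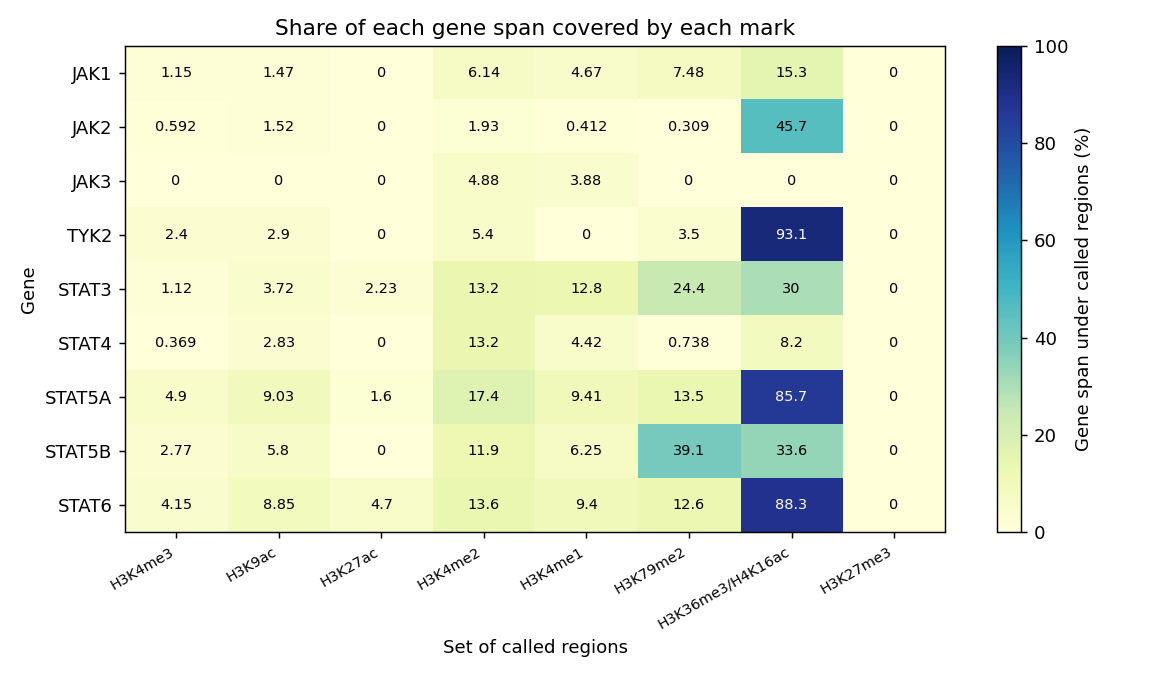
Percentage of the gene span under called regions of each set, for the 9 genes in rows and the 8 sets in columns; darker cells stand for more cover. TYK2, STAT5A and STAT6 are the dark cells under H3K36me3/H4K16ac, STAT5B and STAT3 lead under H3K79me2, and the JAK3 row is 0 outside H3K4me2 and H3K4me1.

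JAK1 (chromosome 1, 64833229 to 65067746, minus strand), the kinase of interferon and IL-6 family receptors, has the longest span of the members, 234.5 kb. H3K9ac formed a region of 3000 bp over the first start and H3K27ac one of 450 bp whose nearer edge lay 305 bp upstream of it. H3K79me2 came in 2 runs. The first had 5 regions from 0.296 to 6.895 kb after the first start, and the second had 15 regions from 101.8 to 176.5 kb, beginning just after the third start. No H3K79me2 lay between them. H3K36me3/H4K16ac covered 1.71% of the first 50% of the span, counted from the start, and 28.8% of the rest. It ran on past the end of JAK1, where RAVER2 lies.

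JAK2 (chromosome 9, 4984390 to 5129948, plus strand), which couples to the receptors of erythropoietin, thrombopoietin and IL-3, had the marks of an active start and little else there. H3K4me3 covered 900 bp and H3K9ac 2550 bp at the start, and H3K27ac 0 bp over the whole locus. H3K79me2 was a single region of 450 bp, 2.66 kb after the first start. H3K36me3/H4K16ac lay in 22 regions from 5.61 kb on, which covered 44.9% of the first 50% of the span and 46.4% of the rest. The gene INSL6 overlaps much of JAK2, and the intervals have no strand. H3K27me3 touched the locus with 611 bp of a 3000 bp region that ends 4390 bp upstream of the first start.

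JAK3 (chromosome 19, 17824782 to 17847982, minus strand), the kinase of the common gamma chain receptors, went against the other members. H3K4me2 covered 1800 bp across its start, from 0.668 kb before to 1.13 kb after it. H3K4me1 lay on either side of the start in 2 regions of 600 bp, both within that H3K4me2 region, and in 1 region of 300 bp 20.3 kb into the gene. None of the 3 reached the median width of H3K4me1 regions. H3K4me3, H3K9ac, H3K27ac, H3K79me2, H3K36me3/H4K16ac and H3K27me3 were at 0 bp over the locus. Intervals of 0 bp say that no region was called, and the depth behind that is unknown.

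TYK2 (chromosome 19, 10350533 to 10380572, minus strand), which pairs with JAK1 on type I interferon receptors, had a compact pattern. H3K4me3 covered 750 bp, H3K9ac 900 bp and H3K79me2 1050 bp, none reaching further than 1.32 kb past the start. H3K36me3/H4K16ac began 1.07 kb after the start and ran in 3 regions to 32.07 kb, past the end of the gene. H3K4me1 and H3K27ac were at 0 bp.

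**Figure D4:**
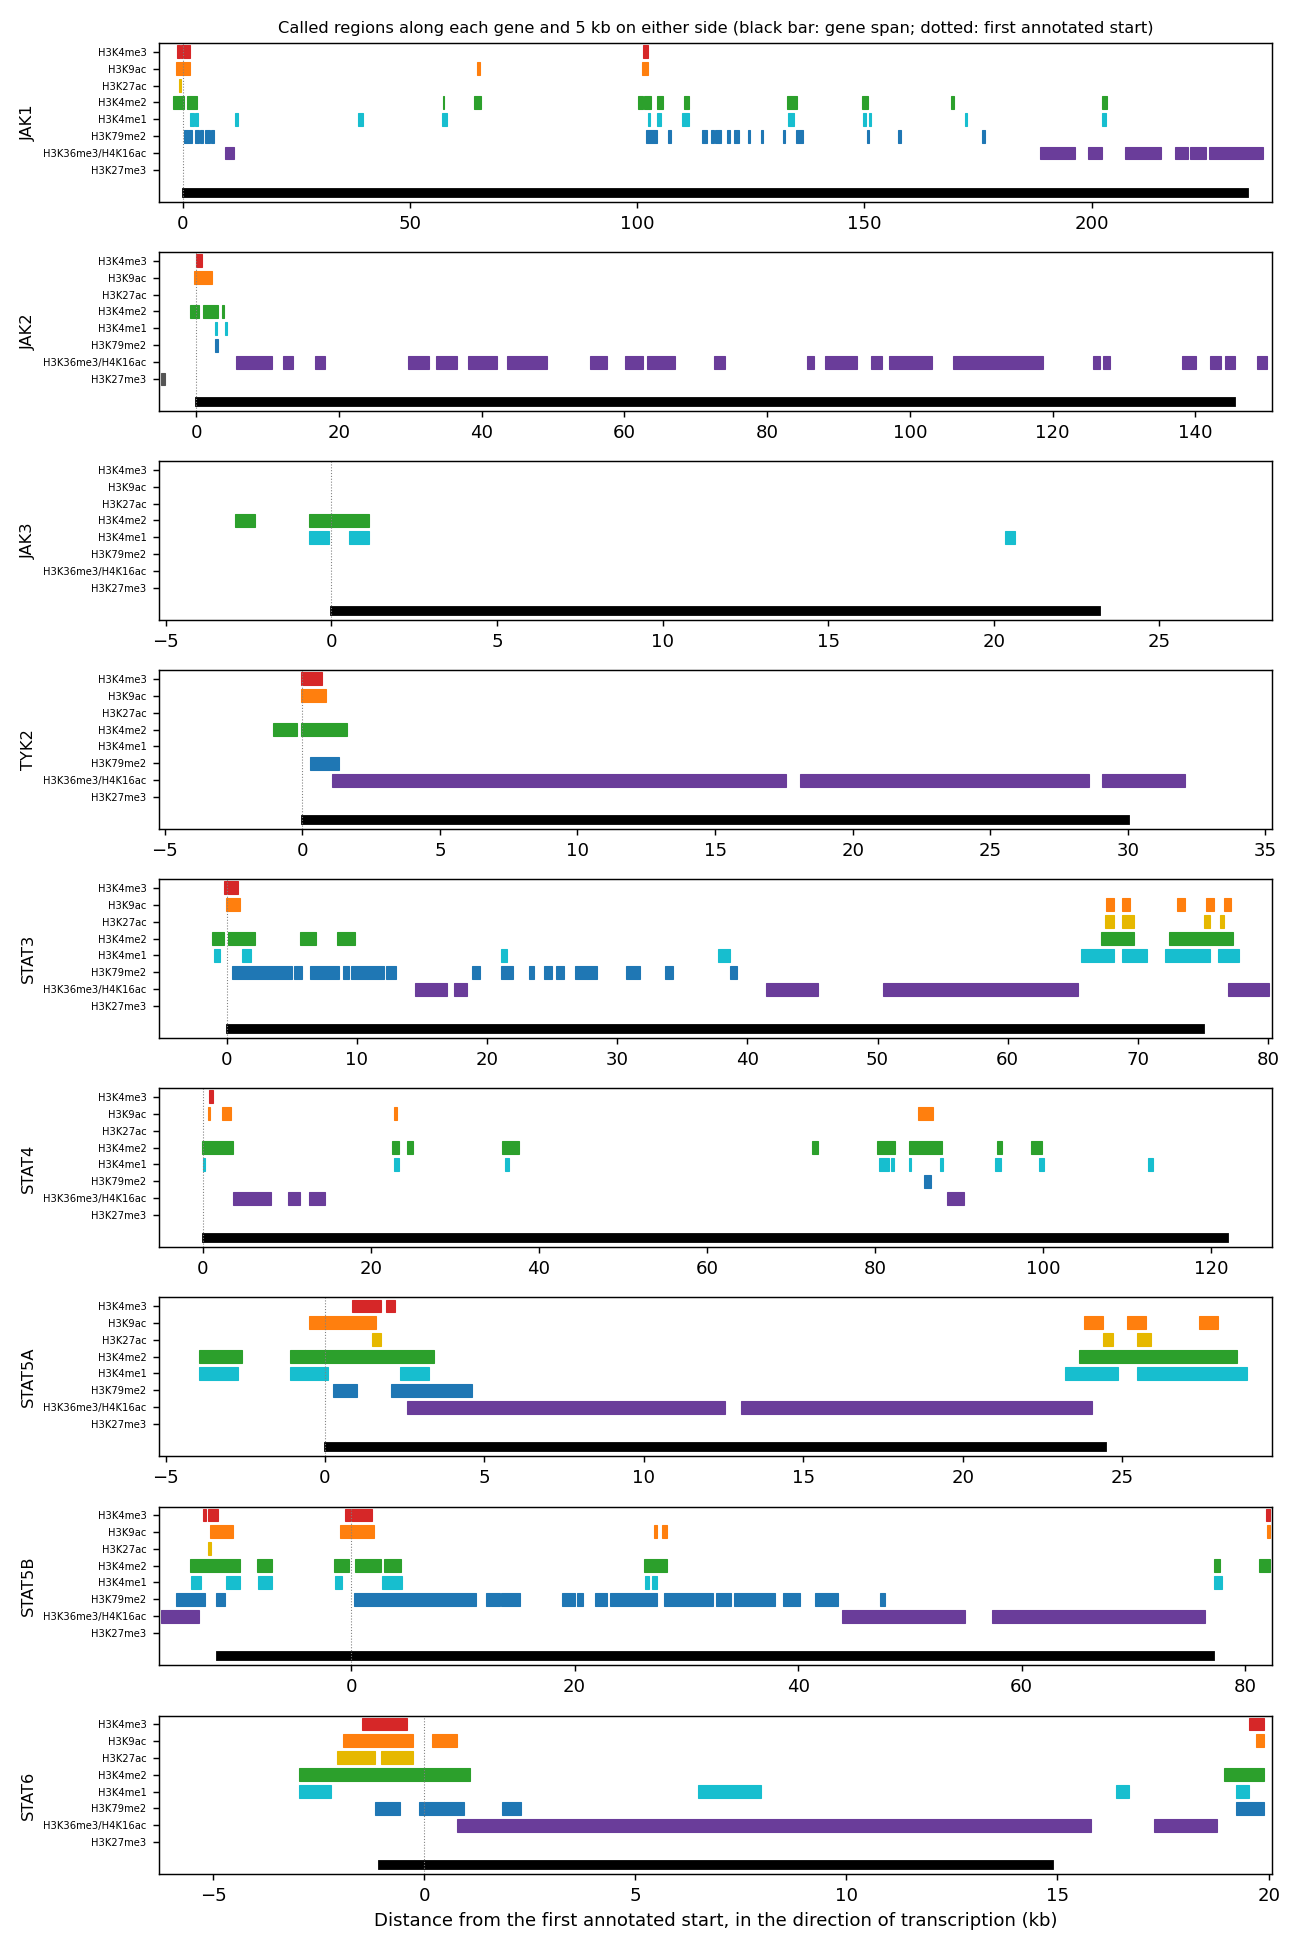
Called regions of the 8 sets along each of the 9 genes and 5 kb on either side, drawn to scale for each gene, with distance in kb from the first annotated start in the direction of transcription. The black bar is the gene span, which in STAT5B and STAT6 begins 11.98 and 1.07 kb before the start in the promoter table; JAK3 shows H3K4me2 and H3K4me1 alone, and JAK1 shows 2 runs of H3K79me2.

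Among the STAT genes, STAT6 (chromosome 12, 57095408 to 57111362, minus strand), the factor activated by IL-4 and IL-13, had the most H3K27ac by share of its span, 4.7%. Its 2 H3K27ac regions, of 750 and 900 bp, and its H3K4me3 region of 1050 bp lay upstream of the start in the table, the nearest edges 0.262 and 0.412 kb away. The annotated span reaches 1.07 kb further upstream than that start. H3K36me3/H4K16ac covered 76.7% of the first 50% of the span and 100% of the rest. At the far end NAB2 overlaps STAT6, and the H3K4me3 region of 600 bp there lies in NAB2.

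STAT4 (chromosome 2, 191029576 to 191151596, minus strand), which acts after IL-12 in T and natural killer cells, had little H3K4me3, 450 bp beside its second start. It had more H3K9ac inside the gene than at the start: a region of 1800 bp lay 85.0 kb into the gene, within H3K4me2 and with 900 bp of H3K79me2 in it, and the nearest annotated start of STAT4 lay 84444 bp away. H3K4me2 covered 16200 bp of the locus in 9 regions and H3K4me1 5400 bp in 10. H3K36me3/H4K16ac was placed the other way round from most members, over 13.1% of the first 50% of the span and 3.28% of the rest.

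STAT5B, STAT5A and STAT3 lie side by side on chromosome 17. STAT5B (42199177 to 42288370, minus strand) and STAT5A (42287439 to 42311943, plus strand) point away from each other, with their first starts 11.05 kb apart and 932 bp of shared span, and are both activated by IL-3, erythropoietin and BCR-ABL1. STAT5A and STAT3 (42313324 to 42388442, minus strand), the factor of IL-6 signalling, meet at their ends with 1.38 kb between them. The 2 STAT5 genes are close copies in part, and how reads that match both were placed is not given in the sources used here.

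At their starts STAT5B and STAT5A differed. STAT5B had an H3K4me3 region of 2400 bp and an H3K9ac region of 3000 bp over its start, and no H3K27ac within 12.5 kb of it. STAT5A had H3K4me3 regions of 900 and 300 bp, an H3K9ac region of 2100 bp and an H3K27ac region of 300 bp. That H3K27ac region is the one counted in the STAT5B locus. H3K79me2 followed the STAT5B start over most of the next 47.8 kb, and H3K36me3/H4K16ac took over from 43.9 to 76.4 kb; both sets shared 450 bp. In STAT5A H3K79me2 ended at 4.61 kb and H3K36me3/H4K16ac began at 2.56 kb, with 2050 bp in common.

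The 4 H3K27ac regions of the STAT3 locus lay at the far end of the gene, not at its start. They fell within 9.15 kb (chromosome 17, 42311851 to 42321000), which runs from the end of STAT5A across the gap into the end of STAT3, 67.4 to 76.6 kb from the STAT3 start. They measured 300, 450, 900 and 750 bp, 2400 bp in all. H3K4me1 covered 6600 bp of the stretch, H3K4me2 6450 bp and H3K9ac 2400 bp. H3K4me3, H3K79me2, H3K36me3/H4K16ac and H3K27me3 were at 0 bp in it. All 4 regions overlapped H3K4me1 and H3K4me2, and 3 overlapped H3K9ac. Genome-wide, 46.9% of H3K27ac regions overlapped H3K4me1 and 38.4% H3K4me3. The other 4 H3K27ac regions of the members, at JAK1, STAT5A and STAT6, all overlapped H3K4me3 and none overlapped H3K4me1. At the start of STAT3 itself H3K4me3 and H3K9ac covered 1050 bp each, with 0 bp of H3K27ac. Calls of H3K27ac were sparse, with 3368 regions genome-wide against 19505 of H3K9ac. Of genes with an annotated start, 6.84% had H3K27ac within 1 kb of it and 58.9% had H3K9ac.

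**Figure D5:**
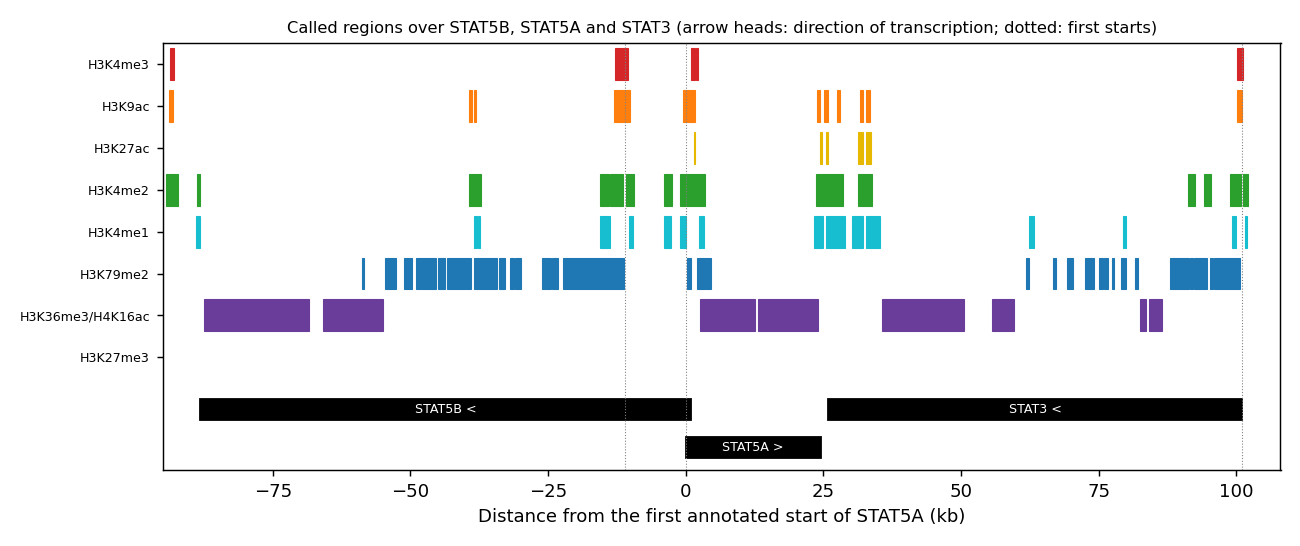
Called regions over STAT5B, STAT5A and STAT3, with distance in kb from the first annotated start of STAT5A; black bars are gene spans and dotted lines first starts. Of the yellow H3K27ac regions, 4 sit where the ends of STAT5A and STAT3 meet, within H3K4me1 and H3K4me2 and without H3K4me3. Another lies by the STAT5A start, with H3K4me3 and without H3K4me1. In STAT3 2 of the H3K36me3/H4K16ac regions, 14.4 to 18.4 kb from its start, lie among the H3K79me2 regions.

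Along the genes H3K79me2 lay nearer the start than H3K36me3/H4K16ac in 7 of the 8 members that had both. The share of all genes with this order was not counted, and the medians over all genes below stand in the same order. For each gene the mean position of the cover was taken as a percentage of the span from its start side. For H3K79me2 it was 1.98% in JAK2, 2.65% in TYK2, 9.67% in STAT6, 11.1% in STAT5A, 19.5% in STAT3, 37.1% in STAT5B, 38.3% in JAK1 and 70.7% in STAT4, against a median of 14.7% over 6997 genes. For H3K36me3/H4K16ac it ran from 50.9% in TYK2 to 86.02% in JAK1, apart from 20.4% in STAT4, against a median of 58.1% over 8255 genes. STAT4 was the exception, with a single H3K79me2 region. The value for JAK1 averages its 2 runs, and that of STAT5B includes the part of its span that overlaps STAT5A. Positions were counted from the span, which in STAT5B and STAT6 begins 11.98 and 1.07 kb before the start in the promoter table. The 2 sets shared no base in JAK1, JAK2, STAT3 and STAT4, and 250 bp in TYK2 and 600 bp in STAT6. Interval starts stepped by 150 bp for H3K79me2 and 500 bp for H3K36me3/H4K16ac, so these overlaps are no finer than that.

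Counted once each, the loci held 13 H3K4me3, 23 H3K9ac, 8 H3K27ac, 44 H3K4me2, 48 H3K4me1, 57 H3K79me2, 46 H3K36me3/H4K16ac and 1 H3K27me3 regions. Every H3K4me3, H3K9ac and H3K27ac region overlapped H3K4me2, against 90.6%, 96.4% and 96.9% of these regions genome-wide. None of the 13 H3K4me3 regions overlapped H3K4me1, against 11.5%. None overlapped H3K36me3/H4K16ac, against 11.2%.

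By the cover of all 8 sets over the locus, in percent, the members fell into no tight group. The Euclidean distance between members was smallest for JAK3 and STAT4, at 9.51 percentage points, and largest for JAK3 and TYK2, at 75.2. The percentages were not scaled, so sets with broad cover weigh most. H3K36me3/H4K16ac covered 0% of the JAK3 locus, 7.57% of that of STAT4 and 74.9% of that of TYK2. The nearest other protein-coding gene was CLEC3B for JAK3, at 0.401, GALNT11 for JAK2, at 1.12, ANAPC4 for TYK2, at 1.67, LATS2 for JAK1, at 2.4, MAP4K2 for STAT4, at 2.79, ESYT1 for STAT6, at 4.56, ADCY7 for STAT3, at 5.83, RANBP3 for STAT5B, at 5.99, and MYG1 for STAT5A, at 9.67. These are likenesses over 8 sets from 1 line.

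The other genes of the pathway were taken from textbook lists, by the same loci. STAT2, which acts after type I interferons, had 450 bp of H3K4me3, 0 bp of H3K27ac and H3K27me3, and H3K36me3/H4K16ac over 83.2% of its span. The counts by list that follow stand against 58.4% of all genes for H3K4me3, 78.2% for H3K4me2, 44.4% for H3K27me3 and 10.9% for H3K27ac, and locus lengths were not matched. Of 27 ligand genes, 7 had H3K4me3, 17 H3K4me2 and 19 H3K27me3, and the 2 with H3K27ac were OSM (1050 bp) and IFNB1 (600 bp). At IFNB1 H3K27ac covered 0% of the span, so all of it lay in the flanks. Of the 20 ligand genes with an annotated start, 2 had H3K4me3 within 1 kb of it, against 55.6% of all such genes, and 0 had H3K27ac, against 6.84%. Of 35 receptor genes, 17 had H3K4me3, 34 H3K4me2, 11 H3K27me3 and 8 H3K27ac. IL2RG, the common gamma chain that JAK3 serves, had the most H3K27ac of these, 2850 bp, followed by IL9R with 2100 bp and IL2RA with 1200 bp. These lengths include the flanks: H3K27ac covered 10.8% of the IL2RG span, 11.7% of the IL9R span and 0.581% of the IL2RA span. Of 19 inhibitor genes, 19 had H3K4me3, 19 H3K4me2 and 4 H3K27ac, with 10762 bp at CISH, 6300 bp at SOCS2 and 2400 bp at the phosphatase gene PTPN6. PIAS2 was the inhibitor with H3K27me3. Of 14 STAT target genes, 13 had H3K4me3, all but CCND1, and 7 had H3K27ac, among them PIM1 and BCL2L1 with 2550 bp each and BCL6 with 1650 bp. H3K4me2 was at 14 of the targets and H3K27me3 at 4, with the most, 20345 bp, at CCND1 and the least, 1624 bp, at BCL6. At BCL6 H3K27me3 covered 0% of the span, so all of it lay in the flanks.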

How the data were processed

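Chromatin of KBM-7 cells was crosslinked, sheared to about 300 bp and immunoprecipitated, per the labels' protocols. The authors deposited 1 list of intervals, with positions in bp and the mark of each interval as its only values. Reads went through cutadapt, Bowtie2 and MACS on GRCh38, per the submitters' processing notes. Versions, thresholds and the input behind each call are not known here, and the depth is unknown. Intervals under 1 label that matches no sample were not used.

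Starts divisible by 50 were moved to the 1-based convention of the rest, and intervals of a mark that overlap or touch were joined (Python 3.11.15, numpy 2.4.6, pandas 2.3.3). On chromosome 1, interval starts differed by multiples of 500 bp for H3K36me3/H4K16ac and H3K27me3 and of 150 bp for the other sets. Edges, gaps and overlaps of regions are no finer than these steps. Genes, starts, strand and promoter sequences came from RefSeq tables of GRCh38.p14, in which all 9 members and 15812 of 19974 protein-coding genes had a start. A mark counted as present with at least 1 bp. Counts of genes with a mark are set beside the share of all protein-coding genes; with 1 library per mark no p-value was computed. Starts replaced gene ends, as the plan allowed. The functions were tested on 2000 simulated loci, with 0 wrong. Members and lists were chosen with earlier results of these data known. Some genes of the lists are not reported here. Text names all members, STAT2, overlapping genes, up to 3 genes per list with the most H3K27ac, list exceptions, and nearest genes by cover. Alternatives varied the flank, window, minimum overlap, region width, joining, and, added after the data were seen, gene ends and neighbouring genes.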

Additional observations from a re-analysis of the deposited data

How the results depend on the processing

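Each count or median below was called moved when it changed by over 1.5 times. Of the counts over the loci, 34 of 40 did not move; of those at starts, 22 of 32; of the medians, 22 of 24; and of the shares of single genes, 197 of 216. By that rule no count for H3K4me3, H3K9ac, H3K4me2 or H3K79me2 moved under the settings tried, though some fell by less. With only regions at or above the median width of a set, H3K4me3 fell from 8 members to 6, as TYK2 and STAT4 lost it. This held both over the locus and at a start. With the same setting H3K9ac at a start fell from 8 to 7. H3K79me2 fell from 8 to 7 over the locus and from 6 to 5 at a start. H3K27ac over the locus went from 5 members to 3 with the gene span alone, 3 with at least 500 bp and 2 with the wider regions (at or above the median width of a set). H3K27ac at a start went from 3 members to 1 with at least 500 bp, 1 with wider regions and 5 with both annotated gene ends in place of starts, and its median cover of 0% became 0.184% with 5 kb on either side. H3K4me1 at a start went from 5 members to 8 within 2.5 kb, 2 with at least 500 bp and 1 with wider regions. The H3K36me3/H4K16ac count at a start went from 2 to 4 within 2.5 kb, 1 with at least 500 bp, 1 with wider regions and 6 with both gene ends. H3K27me3 over the locus went from 1 to 0 with the span alone, 2 with a flank of 10 kb and 0 with wider regions. The median H3K79me2 cover fell from 7.48% to 4.22% with wider regions, which hold fewer regions by construction. By construction, a higher minimum, the wider regions or the span alone can only lower a count. A longer flank or window can only raise it. The cause of the other changes was not tested. Leaving out sequence of other protein-coding genes moved no count over the locus by the rule, though H3K27ac fell from 5 members to 4. No paired analysis was possible because each mark has 1 library and no result comes from a test. Without read counts, the absence of a region cannot be told apart from low depth.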

Other observations

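The other cytoplasmic tyrosine kinases were measured in the same way as the Janus kinases. Of 28 genes, H3K4me2 was at 28, against 78.2% of all genes, H3K9ac at 20, against 62.9%, and H3K4me3 at 18, against 58.4%. H3K79me2 was at 12, against 47.6%, H3K27me3 at 10, against 44.4%, and H3K27ac at 8, against 10.9%. CSK, which restrains the SRC kinases, had 7971 bp of H3K27ac, PTK2B 2400 bp and BTK, a kinase of B cells and myeloid cells, 1950 bp. H3K27ac covered 450 bp at JAK1 and 0 bp at JAK2, JAK3 and TYK2.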
